A study of Mus musculus with 6 samples.

Results

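Glutathione enzymes and NRF2 targets were taken as 38 mouse genes measured by 48 array probes, out of 23787 genes and 34566 probes that could be named through RefSeq. The members were every named gene whose symbol begins with Gsta, Gstm, Gstp, Gstt, Gsto, Gstk, Gstz, Mgst or Gpx followed by a number, and the 6 genes Nqo1, Hmox1, Gclc, Gclm, Txnrd1 and Srxn1. They comprise 7 mu, 4 theta, 3 alpha, 3 pi and 2 omega class glutathione transferases, Gstk1, Gstz1, 3 microsomal glutathione transferases, 8 glutathione peroxidases and the 6 named NRF2 targets. A probe of 33 members was well above background on all 6 arrays, 37 members were above background on at least 1 array, and Gstt4 was on none.

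The samples were 6 cultures of mouse fallopian tube organoids, hollow structures that oviduct epithelial cells form in culture, and each was measured once on a one-colour array. Tumour-derived Pik3ca/Trp53 is a culture with Pik3caH1047R and Trp53 loss grown from a subcutaneous tumour with the histology label adenocarcinoma, and Pik3ca/Trp53 is the same combination before inoculation. Tumour-derived Apc/Trp53 is a culture with Apc580D and Trp53 loss grown from a lesion with the histology label cyst, and Apc/Trp53 is that combination before inoculation. Trp53 loss carries no further labelled allele and was not inoculated, and control comes from Trp53flox/flox mice and carries the vector pLKO.1. All 6 were female, and per the labels they shared a serum-free medium with CHIR-99021, which blocks the kinase GSK3, and with Jagged-1, Noggin, R-spondin1, EGF and Y27632. Pik3caH1047R is a mutant that makes PI3-kinase more active, Apc restrains Wnt signalling, and Trp53 encodes the tumour suppressor p53. The means of Trp53 loss, the number of mice and clones, the age of the mice and the host of the tumours are not stated by the labels, and the other tumour pair that the design mentions was not analysed here.

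Glutathione is a tripeptide that cells use to reduce peroxides and to tag reactive electrophiles for export. Glutathione peroxidases spend it on hydrogen peroxide and lipid peroxides, and glutathione transferases join it to electrophiles or use it in isomerisation. The transcription factor NRF2 (Nfe2l2) is held down by KEAP1 and, when electrophiles or oxidants free it, binds antioxidant response elements with small MAF proteins and switches on genes such as Nqo1, Hmox1, Gclc, Gclm, Txnrd1 and Srxn1. Several alpha and mu class transferases and the epithelial peroxidase gene Gpx2 are also known NRF2 targets.

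Levels are log2 of the background-subtracted intensity minus the 75th percentile of the same array, so a difference of 1 between arrays is 2-fold and levels of different probes cannot be set against each other. Between 45.4% and 51.0% of probes were well above background on each array, no spot was saturated, and copies of the same probe on an array differed by a median SD of 0.0389 to 0.0810. The oviduct epithelium list had 12 to 14 of 14 markers above background on every array, the missing ones being the multiciliated cell genes Ccdc78 and Dynlrb2. Markers above background numbered 5 to 8 of 14 for leukocytes, 0 to 4 of 10 for fibroblasts, 2 to 5 of 9 for endothelium, 2 to 4 of 11 for adipose and skeletal muscle and 0 to 1 of 6 for erythroid cells. The Trp53 probe read 0.89 in control. In tumour-derived Apc/Trp53, Pik3ca/Trp53 and Trp53 loss its signal was not well above background, and it was at least 47.9-fold, at least 33.3-fold and at least 44.0-fold lower than in control. It was above background in tumour-derived Pik3ca/Trp53 (-1.62) and Apc/Trp53 (-3.57), which were 5.68-fold and 22.0-fold lower than control, and whether the probe lies in the deleted part was not determined. All arrays shared 1 slide and 1 scan. Both tumour-derived arrays and control lay in row 2 and the others in row 1, so slide row cannot be told apart from those contrasts. With 1 array per culture, differences between 2 arrays have no replicate check and no p-value. In such bulk samples fewer cells of a type and less RNA per cell cannot be told apart.

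Most members varied widely between the cultures. Over the 33 members above background on all 6 arrays, the median range between the highest and lowest array was 2.61 log2 units, against 0.92 over 12557 genes chosen in the same way. A range of at least 4-fold was seen for 22 of the 33 (66.7%, against 14.9% of genes) and at least 8-fold for 13 (39.4%, against 6.26% of genes). The pi class genes Gstp2 and Gstp3 and the NRF2 target Srxn1 ranged under 2-fold. Tumour-derived Pik3ca/Trp53 was the lowest array for 14 members (42.4%, against 28.9% of genes), and tumour-derived Apc/Trp53 was the lowest for 9 (27.3%, against 23.7% of genes). Control was the highest array for 10 members (30.3%, against 14.5% of genes). Some members, such as those of the mu class, are close to each other in sequence, so these counts are not all of independent genes.

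**Figure D1:**
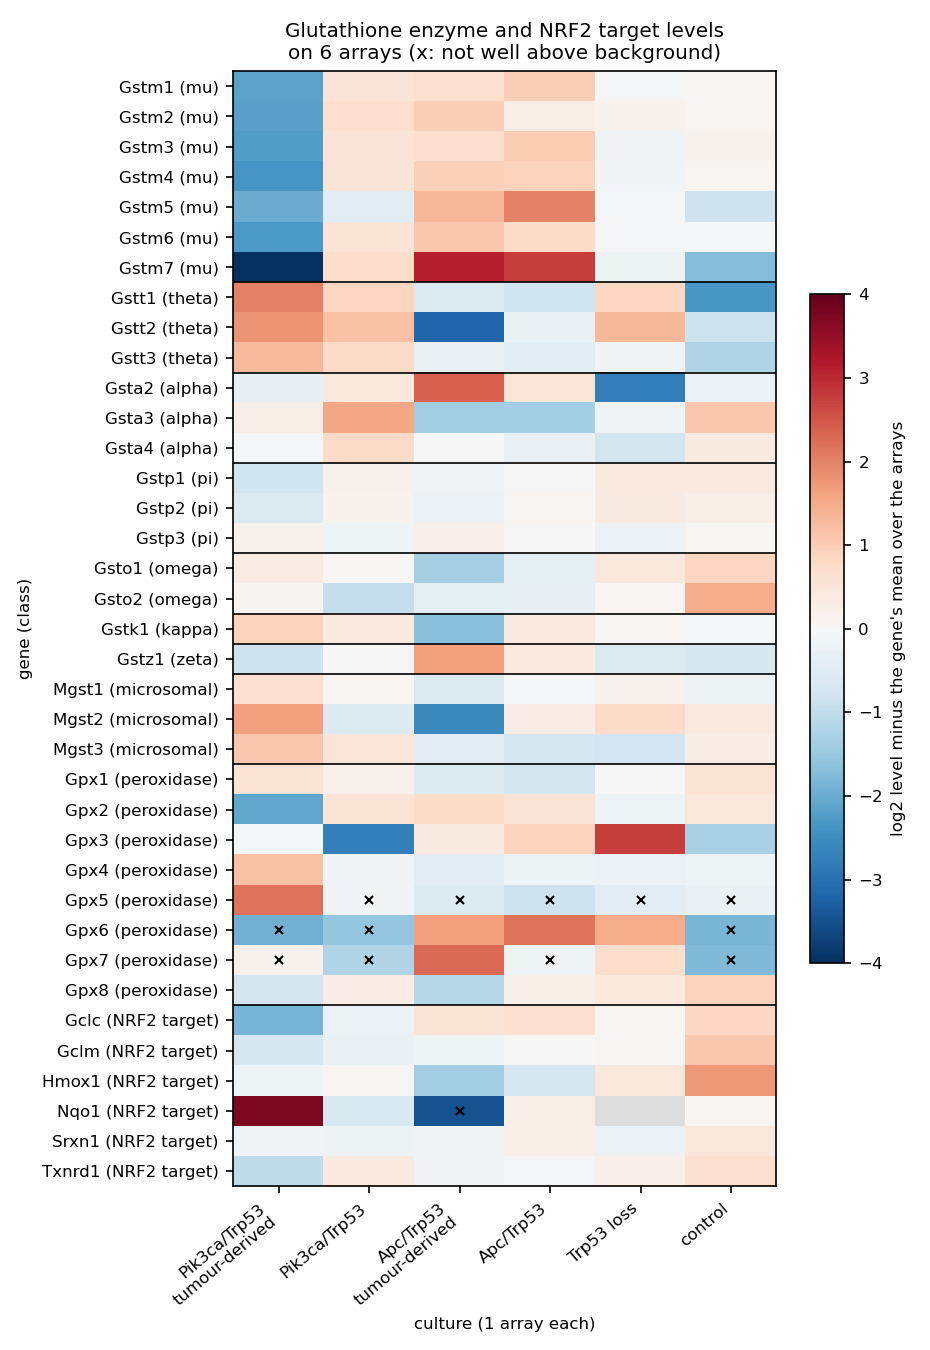
Rows are the 37 members above background on at least 1 array, grouped by class, and columns are the 6 cultures with 1 array each. Colour gives the log2 level minus the gene's own mean over the arrays, crosses mark arrays not well above background, and grey marks the left-out Nqo1 spot. The 7 mu class rows are lowest in tumour-derived Pik3ca/Trp53, and 3 theta class rows are lowest in control or in tumour-derived Apc/Trp53.

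Trp53 loss compared with control asks what goes with the loss when no further allele is labelled. The source label of control names the vector pLKO.1, that of Trp53 loss names none, and their arrays lay in different slide rows. The secreted peroxidase gene Gpx3 was 16.8-fold higher in Trp53 loss, and the theta class genes Gstt1, Gstt2 and Gstt3 were 8.8-fold, 4.51-fold and 2.09-fold higher. All 3 alpha class genes were lower, Gsta2 by 5.77-fold, Gsta3 by 2.35-fold and Gsta4 by 2.12-fold, and so were the heme oxygenase gene Hmox1 (2.43-fold) and the glutamate-cysteine ligase subunit gene Gclm (2.06-fold). Of 35 members measured, 8 were at least 2-fold higher in Trp53 loss (22.9%) and 7 at least 2-fold lower (20.0%). Over all 14361 genes the shares were 6.02% higher and 7.38% lower. The median difference was -0.15 over members and 0.05 over all genes. After raising dim signals to their array's background limit, 6 members were higher and 7 lower. Epithelial markers moved with this comparison too, with 5 of 14 oviduct markers at least 2-fold lower in Trp53 loss and 0 higher (median -0.60). The multiciliated cell genes Dynlrb2 (10.7-fold), Ccdc78 (at least 4.78-fold) and Tppp3 (at least 3.54-fold) and the secretory gene Ovgp1 (5.24-fold) were lower, and the ciliated cell factor gene Foxj1 read -1.52 in Trp53 loss and 0.08 in control. The summed level of the oviduct list was 427 in Trp53 loss and 556 in control, in units of the array's 75th percentile. Such sums add different probes, so bright genes such as Krt18 (log2 7.85 in Trp53 loss and 8.13 in control) weigh most. Of 6 measured leukocyte markers 1 was at least 2-fold lower and 0 higher (median -0.40). Their list's summed level was 49.0 in Trp53 loss and 97.6 in control. Of 5 measured endothelial markers 1 was lower and 0 higher (median -0.68). The part of these markers in the member differences was not tested.

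Pik3ca/Trp53 compared with Trp53 loss asks what Pik3caH1047R goes with. Gpx3 was 45.3-fold lower in Pik3ca/Trp53, the member furthest from 0 in this comparison, and Mgst2, a microsomal transferase gene, was 2.43-fold lower. The Gpx3 level of -3.41 in Pik3ca/Trp53 was near that array's background limit of -4.17. Over the reported and alternative runs the log2 difference of Gpx3 ranged from -5.59 to -3.97. The alpha class genes were all higher, Gsta2 by 9.09-fold, Gsta3 by 3.24-fold and Gsta4 by 2.81-fold, and the microsomal gene Mgst3 was 2.4-fold higher. Of 35 members, 5 were at least 2-fold higher (14.3%, against 9.72% of 14237 genes) and 5 at least 2-fold lower (14.3%, against 8.01%). The medians were 0.08 over members and 0.05 over genes. With dim signals raised, 5 members were higher and 3 lower. Of 13 measured oviduct markers 2 were at least 2-fold higher in Pik3ca/Trp53 and 3 lower, of 8 leukocyte markers 2 were higher and 1 lower, of 3 endothelial markers 1 was higher and 1 lower, and their part was not tested.

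Apc/Trp53 compared with Trp53 loss asks the same of Apc580D. The mu class was higher as a group, with Gstm7 at least 3.3-fold, Gstm5 4.11-fold, Gstm6 3.3-fold, Gstm3 2.16-fold, Gstm1 2.1-fold and Gstm4 2.08-fold higher, and Gstm2 differed by 1.09-fold. The alpha gene Gsta2 was 9.4-fold higher, while Gsta3 was 2.31-fold lower. Gpx3 (3.6-fold), Gstt1 (3.05-fold), Gstt2 (3.04-fold) and Hmox1 (2.16-fold) were lower in Apc/Trp53. Of 35 members, 7 were at least 2-fold higher (20.0%, against 5.36% of 14463 genes) and 5 at least 2-fold lower (14.3%, against 5.26%), and 6 of the 7 higher members were mu class genes. The medians were 0.01 over members and 0.02 over genes. This comparison shares the Trp53 loss array with the 2 before it, so a level peculiar to that array, such as that of Gsta2 or Gpx3, enters all 3. Endothelial markers moved with it, with 4 of 5 measured at least 2-fold higher in Apc/Trp53 and 0 lower, among them Kdr (8.46-fold), Cdh5 (3.85-fold) and Vwf (2.84-fold). The endothelial list's summed level was 2.5 in Apc/Trp53 and 0.599 in Trp53 loss, with Tek, Emcn, Cldn5 and Tie1 not well above background on either array. All 6 measured leukocyte markers were below 0 (-1.60 to -0.20), with Cd68 3.02-fold lower in Apc/Trp53. Of 13 measured oviduct markers 1 was at least 2-fold higher and 1 lower. The part of these markers in the mu class and other member differences was not tested.

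Tumour-derived Pik3ca/Trp53 compared with Pik3ca/Trp53 before inoculation had the most members apart. All 7 mu class genes were lower in the tumour-derived culture, by 2.87-fold for Gstm5 to 40.6-fold for Gstm7, with a class median of -2.74 on the log2 scale. Also lower were Gpx2 (6.16-fold), the catalytic glutamate-cysteine ligase subunit gene Gclc (3.09-fold), the thioredoxin reductase gene Txnrd1 (2.64-fold), Gsta3 (2.47-fold) and Gpx8 (2.02-fold). Higher in the tumour-derived culture were the quinone reductase gene Nqo1 (20.4-fold), Gpx3 (6.36-fold), Mgst2 (4.4-fold), the phospholipid peroxidase gene Gpx4 (2.44-fold) and Gstt1 (2.22-fold). Over the reported and alternative runs the log2 difference ranged from -5.47 to -3.93 for Gstm7 and from 1.44 to 2.77 for Gpx3. Of 35 members, 12 were at least 2-fold lower (34.3%, against 11.3% of 14727 genes) and 7 at least 2-fold higher (20.0%, against 14.1%). The medians were -0.43 over members and -0.09 over genes. Markers of other cell types moved with this comparison. Of 10 fibroblast markers, 4 were above background in tumour-derived Pik3ca/Trp53 and 1 in Pik3ca/Trp53, with summed levels of 8.79 and 0.255. Postn was at least 86.8-fold higher in the tumour-derived culture and the adipocyte and endothelial gene Fabp4 at least 32.5-fold higher, while Col3a1, Pdgfrb, Dcn, Lum, Thy1 and Fap were not well above background there. Of 14 leukocyte markers, 7 were above background in tumour-derived Pik3ca/Trp53 and 8 in Pik3ca/Trp53, with summed levels of 78.2 and 32.7. The myeloid genes S100a8 (26.4-fold) and S100a9 (at least 16.4-fold) were higher in the tumour-derived culture, while Ptprc, which marks all leukocytes, was above background on neither array. S100a8 and S100a9 had log2 levels of 0.87 and -0.13 in tumour-derived Pik3ca/Trp53, a small part of the leukocyte sum. The endothelial gene Plvap was at least 8.23-fold higher and Vwf 5.42-fold lower. Of 12 measured oviduct markers 3 were at least 2-fold higher and 0 lower. The part of other cell types in these differences was not tested.

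Tumour-derived Apc/Trp53 was likewise compared with Apc/Trp53 before inoculation. Nqo1 (at least 7.85-fold), Gstt2 (7.39-fold), Mgst2 (7.31-fold), the kappa class gene Gstk1 (4.21-fold) and the endoplasmic reticulum peroxidase gene Gpx8 (2.62-fold) were lower in the tumour-derived culture. The log2 difference of Nqo1 ranged from -4.10 to -1.63 over the reported and alternative runs, so 7.85-fold bounds the reported run only. Gpx7 (at least 4.62-fold), also of the endoplasmic reticulum, Gsta2 (3.77-fold), the zeta class gene Gstz1 (2.35-fold) and Gstm6 (2.15-fold, as the mean of 2 probes that disagreed) were higher. Of 36 members, 5 were at least 2-fold higher (13.9%, against 11.3% of 14888 genes) and 5 at least 2-fold lower (13.9%, against 8.04%). The medians were -0.12 over members and -0.03 over genes. Of the 10 fibroblast markers, 2 were above background in tumour-derived Apc/Trp53 and 0 in Apc/Trp53, with summed levels of 0.444 and 0.125. Of the 14 leukocyte markers 6 were above background on each array, with summed levels of 18.0 in tumour-derived Apc/Trp53 and 27.9 in Apc/Trp53. Ptprc was above background in tumour-derived Apc/Trp53 only, on 1 of its 2 probes (-3.10, at least 3.44-fold higher), and the macrophage gene Cd68 was 4.53-fold lower. The muscle gene Ckm was at least 13.7-fold higher in the tumour-derived culture, the endothelial gene Vwf 2.81-fold higher and Cdh5 5.34-fold lower. Of 13 measured oviduct markers 2 were at least 2-fold higher and 1 lower, and the part of all these markers was not tested.

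**Figure D2:**
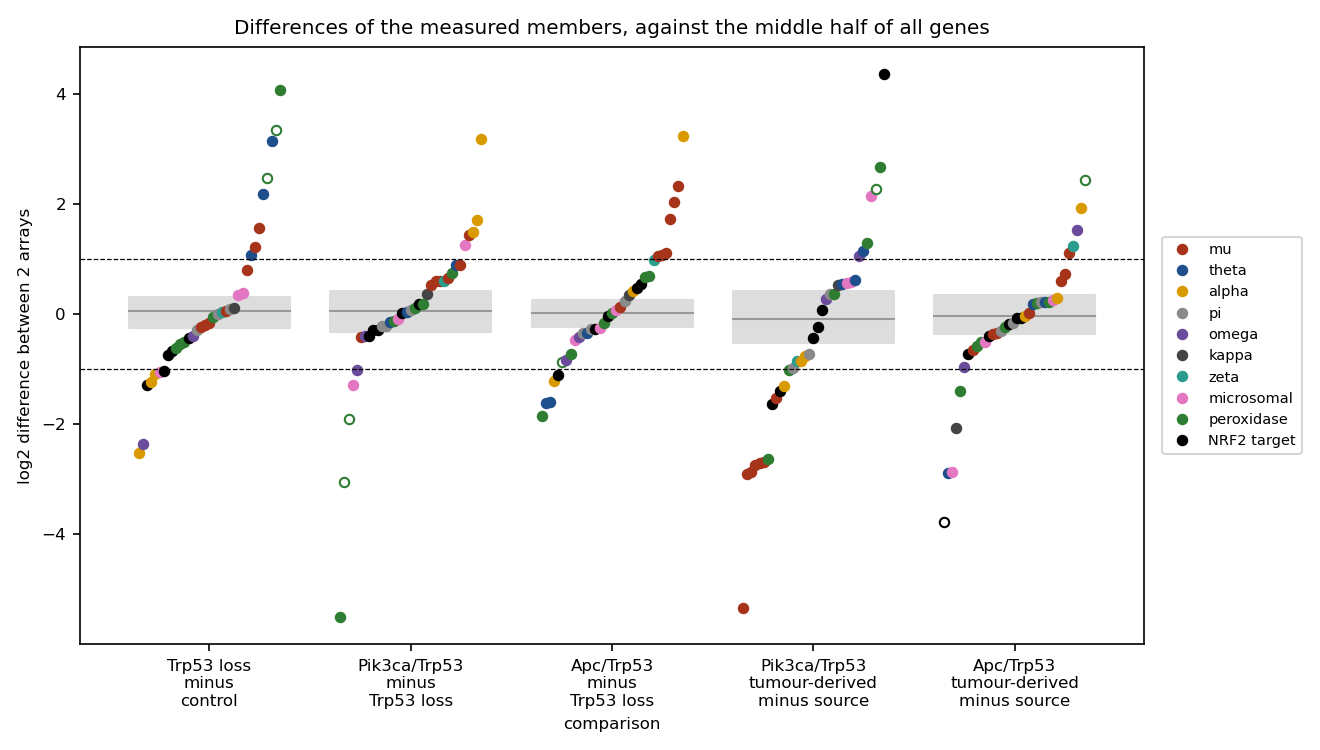
Each point is the log2 difference of 1 member between 2 arrays, coloured by class and sorted within its comparison, with open points where 1 array was not well above background. Grey boxes span the 25th to 75th percentile of all genes with their median as a line, and dashed lines mark 2-fold. The 7 mu class points lie between -5.34 and -1.52 in tumour-derived Pik3ca/Trp53 minus Pik3ca/Trp53.

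Mu class transferases conjugate glutathione to epoxides and other electrophiles, and their genes lie side by side on chromosome 3. Gstm1 had log2 levels of 2.04 in tumour-derived Pik3ca/Trp53 and 4.72 in Pik3ca/Trp53, 4.83 in tumour-derived Apc/Trp53 and 5.19 in Apc/Trp53, 4.12 in Trp53 loss and 4.28 in control. Gstm2 had log2 levels of 2.44 in tumour-derived Pik3ca/Trp53 and 5.30 in Pik3ca/Trp53, 5.62 in tumour-derived Apc/Trp53 and 4.89 in Apc/Trp53, 4.77 in Trp53 loss and 4.71 in control. Gstm3 had log2 levels of 2.88 in tumour-derived Pik3ca/Trp53 and 5.61 in Pik3ca/Trp53, 5.78 in tumour-derived Apc/Trp53 and 6.12 in Apc/Trp53, 5.01 in Trp53 loss and 5.25 in control. For all 3 the tumour-derived Pik3ca/Trp53 array was the lowest and lay apart from the other 5. Gstm4 had log2 levels of -1.37 in tumour-derived Pik3ca/Trp53 and 1.53 in Pik3ca/Trp53, 1.95 in tumour-derived Apc/Trp53 and 1.93 in Apc/Trp53, 0.88 in Trp53 loss and 1.08 in control. Gstm5 had log2 levels of 2.62 in tumour-derived Pik3ca/Trp53 and 4.14 in Pik3ca/Trp53, 5.95 in tumour-derived Apc/Trp53 and 6.61 in Apc/Trp53, 4.57 in Trp53 loss and 3.77 in control. For Gstm4 both Apc/Trp53 arrays were the highest, and for Gstm5 they stood further above the rest. Gstm7 had log2 levels of -2.92 in tumour-derived Pik3ca/Trp53 and 2.42 in Pik3ca/Trp53, 4.85 in tumour-derived Apc/Trp53 and 4.48 in Apc/Trp53, 1.53 in Trp53 loss and -0.02 in control, on the probe that was above background on every array. As for Gstm5, both Apc/Trp53 arrays were high and control was second lowest. Gstm6 had log2 levels of -1.09 in tumour-derived Pik3ca/Trp53 and 1.75 in Pik3ca/Trp53, 2.29 in tumour-derived Apc/Trp53 and 1.95 in Apc/Trp53, 1.14 in Trp53 loss and 1.14 in control on 1 probe. Its other probe read -3.20 in tumour-derived Pik3ca/Trp53 and -0.63 in Pik3ca/Trp53, 1.63 in tumour-derived Apc/Trp53 and -0.24 in Apc/Trp53, and -2.88 in Trp53 loss, and was not well above background in control. The Gstm6 probes disagreed in size, and on the probe above background everywhere Gstm6 differed by 0.34 in tumour-derived Apc/Trp53 minus Apc/Trp53, 0.80 in Apc/Trp53 minus Trp53 loss, 0.60 in Pik3ca/Trp53 minus Trp53 loss and 0.01 in Trp53 loss minus control, under 2-fold each time.

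Mu class coding sequences are close to each other, so that a probe can take up transcript of a neighbour. How much the mu class probes share was not tested. The direction of the mu class in tumour-derived Pik3ca/Trp53 minus Pik3ca/Trp53 (7 of 7 lower) and in Apc/Trp53 minus Trp53 loss (7 of 7 higher) was the same under each of 5 scalings and background corrections, whereas its split in tumour-derived Apc/Trp53 minus Apc/Trp53 was 4 above and 3 below 0 and turned to 3 above and 4 below with scaling to the array median. Genes flanking the cluster were set beside it because they share its position and not its function. Flanking genes were the 3 nearest protein-coding genes on each side with a probe above background on at least 1 array. Nearer genes without such a probe were passed over. In gene order the flanking genes were Ahcyl1, Csf1 and Eps8l3 on one side and Ampd2, Gm12500 and Gnat2 on the other. In tumour-derived Pik3ca/Trp53 minus Pik3ca/Trp53 Ahcyl1 (-1.31), Csf1 (-0.99), Ampd2 (-1.01) and Gnat2 (-2.53) were lower too, so 4 of 4 measured flanking genes differed in the same direction as the cluster. The median over all 14727 genes was itself below 0 there (-0.09), and 11.3% of them were at least 2-fold lower. In Apc/Trp53 minus Trp53 loss, Ahcyl1 was at -0.12 and Ampd2 at 0.27, while Csf1 was at 0.98 and Gnat2 at 0.50, and Eps8l3 was at least 1.51-fold higher. The copy number of this region was not measured here.

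**Figure D3:**
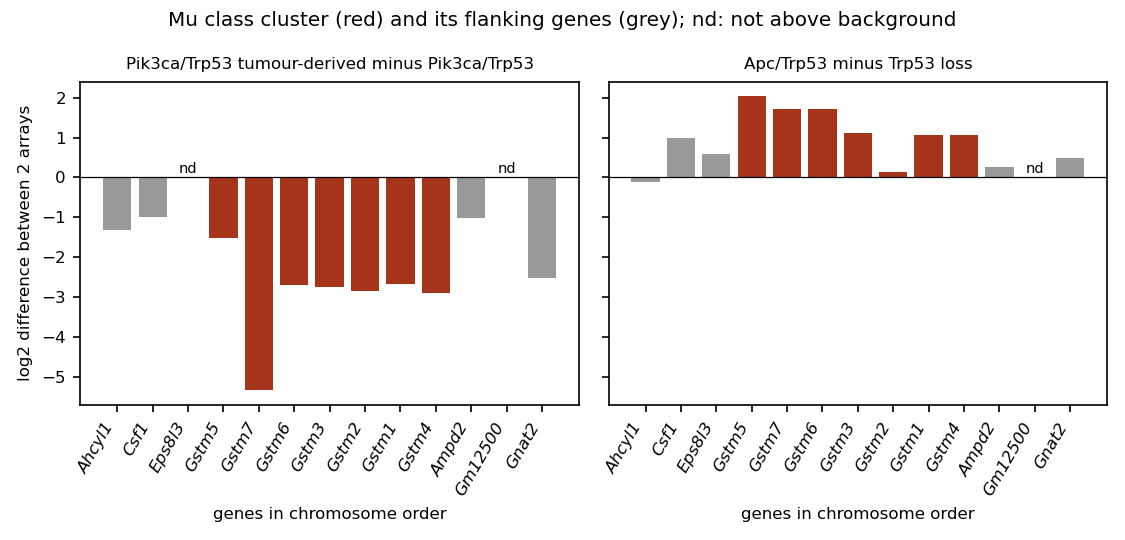
Bars are log2 differences between 2 arrays for the 7 mu class genes in red and 3 flanking genes on each side in grey, in gene order along chromosome 3, after dim signals were raised to their array's background limit. On the left, the cluster lies between -5.34 and -1.52 and the measured flanking genes between -2.53 and -0.99, and on the right, Gstm7, Gstm5 and Gstm6 are the highest of the cluster.

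**Figure D4:**
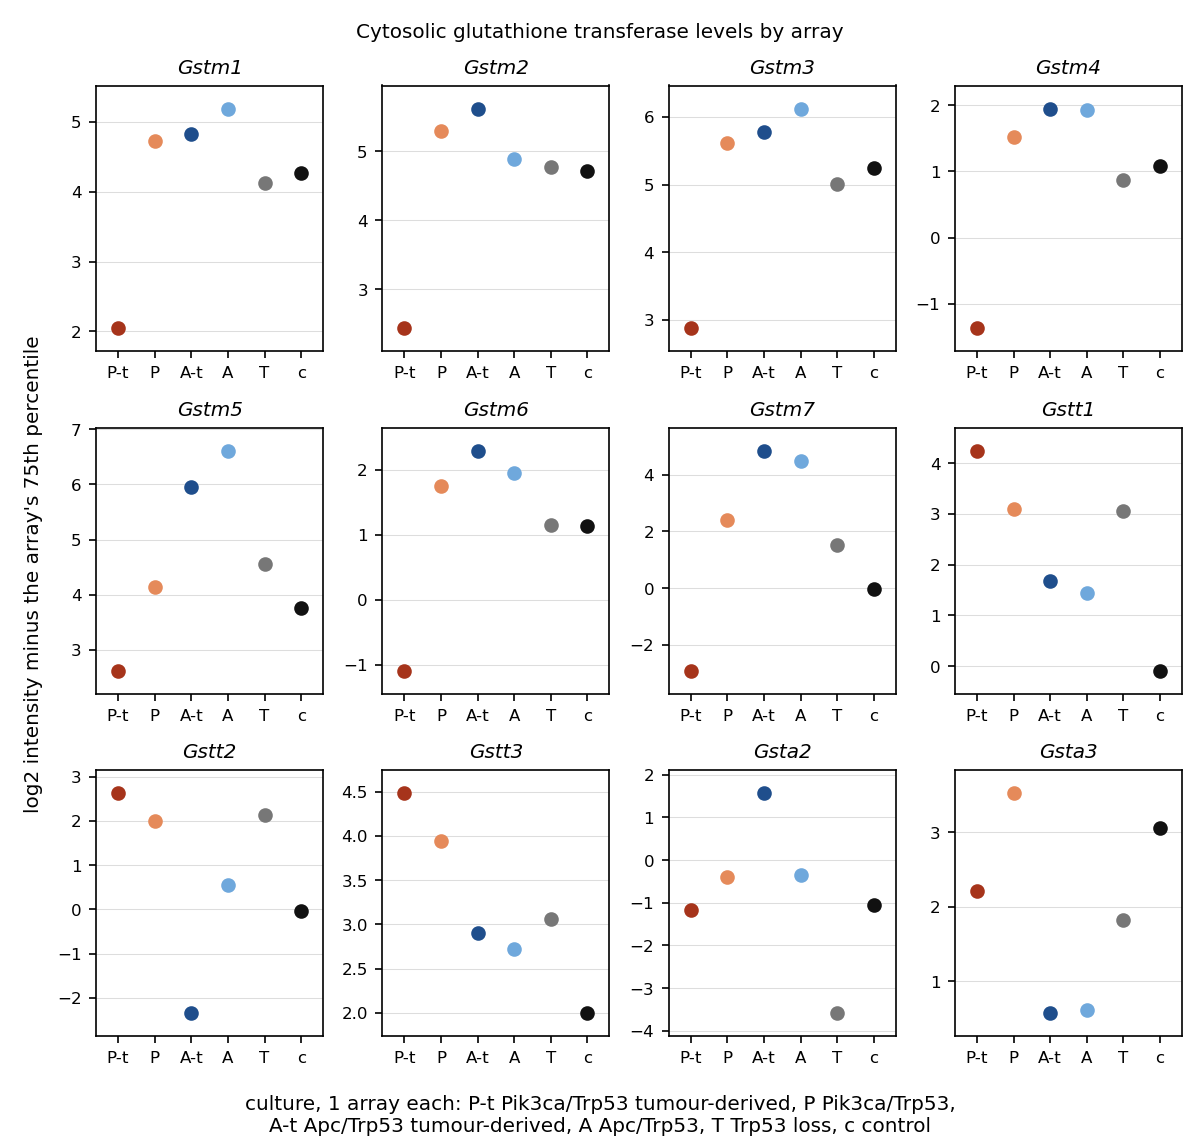
Each panel plots the log2 level of 1 glutathione transferase gene on each of the 6 arrays, with 1 point per culture and its own vertical scale. Tumour-derived Pik3ca/Trp53 is the lowest point for all 7 mu class genes and the highest for Gstt1, Gstt2 and Gstt3.

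The bases before the gene start were searched for the core of the antioxidant response element, TGACNNNGC on either strand, because this is the element that NRF2 binds. RefSeq (GRCm38.p6) gave 48 windows of 250 bases for 34 of the members, of which 6 windows (12.5%) of 6 members held the motif, against 3338 of 32851 windows of all genes (10.2%). The 6 members were Gclm, Gsta3, Gstm5, Gstm7, Mgst1 and Txnrd1, though not in every window of Gstm7, Mgst1 and Txnrd1. Gclc, Hmox1, Gsta4 and Gstt2 had no window and were not searched. A match describes letters in this window and is no shown binding site, and enhancers further away were not searched. Of the mu class, the window of Gstm5 and 1 of the 2 windows of Gstm7 held it, and the windows of Gstm1, Gstm2, Gstm3, Gstm4 and Gstm6 did not. The match of Gstm7 lies before its downstream start only, 74 bases past its other start, and that window is not shown. The window of Gstm5 at chr3:107895604-107895853 (plus strand) is shown as the mu class promoter with a match, read 5′ to 3′ toward the gene start with the motif in capitals.
Gstm5: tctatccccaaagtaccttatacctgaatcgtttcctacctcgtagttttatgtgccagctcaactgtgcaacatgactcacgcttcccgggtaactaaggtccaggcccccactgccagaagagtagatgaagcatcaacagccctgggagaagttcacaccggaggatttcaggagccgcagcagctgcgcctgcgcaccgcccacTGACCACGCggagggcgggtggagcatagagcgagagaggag
The motif of Gstm5 starts 42 bases before the gene start.

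Theta class transferases act on small halogenated compounds and on organic peroxides, and their genes lie together on chromosome 10. Gstt1 had log2 levels of 4.24 in tumour-derived Pik3ca/Trp53 and 3.09 in Pik3ca/Trp53, 1.67 in tumour-derived Apc/Trp53 and 1.44 in Apc/Trp53, 3.05 in Trp53 loss and -0.09 in control. Gstt2 had log2 levels of 2.62 in tumour-derived Pik3ca/Trp53 and 2.01 in Pik3ca/Trp53, -2.34 in tumour-derived Apc/Trp53 and 0.54 in Apc/Trp53, 2.15 in Trp53 loss and -0.03 in control. Control was the lowest array for Gstt1, and tumour-derived Apc/Trp53 was the lowest for Gstt2 with control second lowest. Gstt3 was highest in tumour-derived Pik3ca/Trp53 (4.48) and lowest in control, and Gstt4 was not well above background on any array. In Trp53 loss minus control the 3 measured theta genes were all higher under each of the 5 scalings and background corrections (median 2.17). The measured flanking genes differed less in that comparison, with Susd2 at 0.45, Cabin1 at 0.49, Ddt at 0.39, Mif at 0.45 and Smarcb1 at 0.14.

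Alpha class transferases reduce lipid peroxides and conjugate their breakdown products. Gsta2 had log2 levels of -1.16 in tumour-derived Pik3ca/Trp53 and -0.40 in Pik3ca/Trp53, 1.56 in tumour-derived Apc/Trp53 and -0.35 in Apc/Trp53, -3.58 in Trp53 loss and -1.06 in control. The Trp53 loss array was lowest and tumour-derived Apc/Trp53 highest, and both double-mutant cultures before inoculation lay above control. Gsta3 had log2 levels of 2.22 in tumour-derived Pik3ca/Trp53 and 3.52 in Pik3ca/Trp53, 0.57 in tumour-derived Apc/Trp53 and 0.62 in Apc/Trp53, 1.83 in Trp53 loss and 3.06 in control. Its order was not that of Gsta2, since both Apc/Trp53 arrays were lowest and Pik3ca/Trp53 and control highest. Gsta4, which acts on aldehydes from lipid peroxidation, was highest in Pik3ca/Trp53 (2.78) and lowest in Trp53 loss (1.29). Gsta1 had no named probe.

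Among the smaller classes, the pi class genes Gstp1, Gstp2 and Gstp3 did not differ by 2-fold in any of the 5 comparisons. Pi class transferases are abundant in many epithelia, and Gstp1 was lowest in tumour-derived Pik3ca/Trp53 (2.96) and highest in control (4.15). Omega class enzymes reduce dehydroascorbate. Gsto1 was within 2-fold in each comparison. The Gsto2 probes disagreed, and on the one above background on every array control was highest (-0.21) with Trp53 loss at -1.60. Gstk1, the kappa class enzyme of mitochondria and peroxisomes, had log2 levels of 0.62 in tumour-derived Pik3ca/Trp53 and 0.09 in Pik3ca/Trp53, -1.99 in tumour-derived Apc/Trp53 and 0.09 in Apc/Trp53, -0.27 in Trp53 loss and -0.38 in control. Only tumour-derived Apc/Trp53 stood apart, at the low end. Gstz1, which isomerises maleylacetoacetate in tyrosine breakdown, was highest in the same culture, 2.35-fold above Apc/Trp53 as the mean of 2 probes.

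Microsomal transferases are membrane enzymes of the same function or of leukotriene synthesis. Mgst2, which can make cysteinyl leukotrienes, had log2 levels of 2.79 in tumour-derived Pik3ca/Trp53 and 0.65 in Pik3ca/Trp53, -1.41 in tumour-derived Apc/Trp53 and 1.46 in Apc/Trp53, 1.93 in Trp53 loss and 1.54 in control. The tumour-derived Pik3ca/Trp53 array was highest and tumour-derived Apc/Trp53 lowest, so the differences from the cultures before inoculation were 2.14 and -2.87. Mgst1 differed by less than 2-fold in each of the 5 comparisons. In Trp53 loss Mgst3 was 2.08-fold lower than in control, and it was 2.4-fold higher in Pik3ca/Trp53 than in Trp53 loss.

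The glutathione peroxidases with selenocysteine in the active site measured here include Gpx1 of the cytosol, Gpx2 of epithelia, the secreted Gpx3 and Gpx4, which reduces lipid peroxides in membranes and protects from ferroptosis. Gpx1 had log2 levels of 6.30 in tumour-derived Pik3ca/Trp53 and 5.94 in Pik3ca/Trp53, 5.22 in tumour-derived Apc/Trp53 and 5.03 in Apc/Trp53, 5.75 in Trp53 loss and 6.30 in control. Gpx2 had log2 levels of 4.73 in tumour-derived Pik3ca/Trp53 and 7.35 in Pik3ca/Trp53, 7.54 in tumour-derived Apc/Trp53 and 7.31 in Apc/Trp53, 6.62 in Trp53 loss and 7.24 in control. Gpx1 was lowest in both Apc/Trp53 cultures, and Gpx2 was low in tumour-derived Pik3ca/Trp53 alone. Gpx3 had log2 levels of -0.75 in tumour-derived Pik3ca/Trp53 and -3.41 in Pik3ca/Trp53, -0.33 in tumour-derived Apc/Trp53 and 0.24 in Apc/Trp53, 2.09 in Trp53 loss and -1.98 in control. The Trp53 loss array was highest and Pik3ca/Trp53 lowest, and control was second lowest. Gpx4 had log2 levels of 6.56 in tumour-derived Pik3ca/Trp53 and 5.27 in Pik3ca/Trp53, 4.94 in tumour-derived Apc/Trp53 and 5.18 in Apc/Trp53, 5.17 in Trp53 loss and 5.22 in control. The tumour-derived Pik3ca/Trp53 array was higher and the other 5 were close to each other. Gpx7 was well above background only in tumour-derived Apc/Trp53 (-2.67) and Trp53 loss (-4.23). Gpx8, its close relative, was lowest in both tumour-derived cultures, 1.86 in tumour-derived Pik3ca/Trp53 and 2.87 in Pik3ca/Trp53, and 1.45 in tumour-derived Apc/Trp53 and 2.84 in Apc/Trp53. Gpx5, known from the epididymis, was above background only in tumour-derived Pik3ca/Trp53 (-4.18), and Gpx6, known from olfactory epithelium, only in both Apc/Trp53 arrays and Trp53 loss, at -3.04, -2.53 and -3.20.

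Of the 6 named NRF2 targets, Hmox1, Gclc, Gclm, Txnrd1 and Srxn1 were highest in control, and Nqo1 was not. All 5 measured were below 0 in Trp53 loss minus control (-1.28 to -0.43), also under each of the 5 scalings and background corrections. Of them 2 were at least 2-fold lower, against 7.38% of all genes, whose median was 0.05. In tumour-derived Apc/Trp53 minus Apc/Trp53 all 6 targets were below 0 (-3.77 to -0.07). With quantile normalization, or with the 75th percentile over probes above background on all 6 arrays, 5 of 6 were. Of the 6 targets 1 was at least 2-fold lower, against 8.04% of all genes, whose median was -0.03. The share of all genes below 0 was not counted. In each of the other 3 comparisons 2 targets lay above 0 and the rest below, and 1 to 3 targets lay above 0 under the other scalings and background corrections. Nqo1, which reduces quinones, had log2 levels of 1.74 in tumour-derived Pik3ca/Trp53 and -2.61 in Pik3ca/Trp53, -1.72 in Apc/Trp53 and -1.91 in control, and was not well above background in tumour-derived Apc/Trp53 (-5.49). Its single spot on the Trp53 loss array carried the scanner's outlier flag and was left out. With that spot kept, Nqo1 read 0.87 in Trp53 loss, 2.78 log2 units above control, and the authors' deposited table, which uses it, gives 2.80, so that with it 1 of 6 targets was higher in Trp53 loss than in control. Hmox1, which breaks down heme, had log2 levels of 3.30 in tumour-derived Pik3ca/Trp53 and 3.53 in Pik3ca/Trp53, 2.08 in tumour-derived Apc/Trp53 and 2.82 in Apc/Trp53, 3.93 in Trp53 loss and 5.21 in control. Control was the highest array and both Apc/Trp53 cultures were the lowest.

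Gclc and Gclm encode the catalytic and modifier subunits of glutamate-cysteine ligase, the first step of glutathione synthesis. Gclc had log2 levels of 0.84 in tumour-derived Pik3ca/Trp53 and 2.47 in Pik3ca/Trp53, 3.25 in tumour-derived Apc/Trp53 and 3.32 in Apc/Trp53, 2.77 in Trp53 loss and 3.51 in control. Gclm had log2 levels of 2.10 in tumour-derived Pik3ca/Trp53 and 2.53 in Pik3ca/Trp53, 2.61 in tumour-derived Apc/Trp53 and 2.79 in Apc/Trp53, 2.82 in Trp53 loss and 3.86 in control. Gclc was low in tumour-derived Pik3ca/Trp53, whereas for Gclm control stood further above all other arrays. Txnrd1, the cytosolic thioredoxin reductase, had log2 levels of 2.39 in tumour-derived Pik3ca/Trp53 and 3.79 in Pik3ca/Trp53, 3.25 in tumour-derived Apc/Trp53 and 3.34 in Apc/Trp53, 3.61 in Trp53 loss and 4.04 in control as the mean of 2 probes. The Txnrd1 probes disagreed in size in tumour-derived Pik3ca/Trp53 minus Pik3ca/Trp53, where the brighter one gave -0.82 and the dimmer one -1.98. Srxn1, which restores overoxidised peroxiredoxins, had log2 levels of 2.46 in tumour-derived Pik3ca/Trp53 and 2.40 in Pik3ca/Trp53, 2.45 in tumour-derived Apc/Trp53 and 2.85 in Apc/Trp53, 2.38 in Trp53 loss and 3.05 in control. It was highest in control and differed by less than 2-fold in each comparison. Gclm and Txnrd1 are the named targets whose windows held the NRF2 core motif, at chr3:122245307-122245556 (plus strand) and chr10:82858956-82859205 (plus strand) of GRCm38.p6, with the motif in capitals. It lies on the minus strand in both, 134 bases before the start of Gclm and 92 bases before 1 of the starts of Txnrd1.
Gclm: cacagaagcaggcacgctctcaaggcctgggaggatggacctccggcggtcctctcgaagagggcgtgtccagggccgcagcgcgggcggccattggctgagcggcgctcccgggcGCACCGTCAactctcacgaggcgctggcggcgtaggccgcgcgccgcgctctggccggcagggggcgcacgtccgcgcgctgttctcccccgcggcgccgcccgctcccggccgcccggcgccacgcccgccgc
Txnrd1: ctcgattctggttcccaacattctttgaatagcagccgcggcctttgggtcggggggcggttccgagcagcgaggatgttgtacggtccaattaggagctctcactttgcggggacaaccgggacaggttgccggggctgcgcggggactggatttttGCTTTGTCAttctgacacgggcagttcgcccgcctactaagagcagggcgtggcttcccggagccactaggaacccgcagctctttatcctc
The windows of Nqo1 and Srxn1 held no match to these letters, and Gclc and Hmox1 had no window to search.

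**Figure D5:**
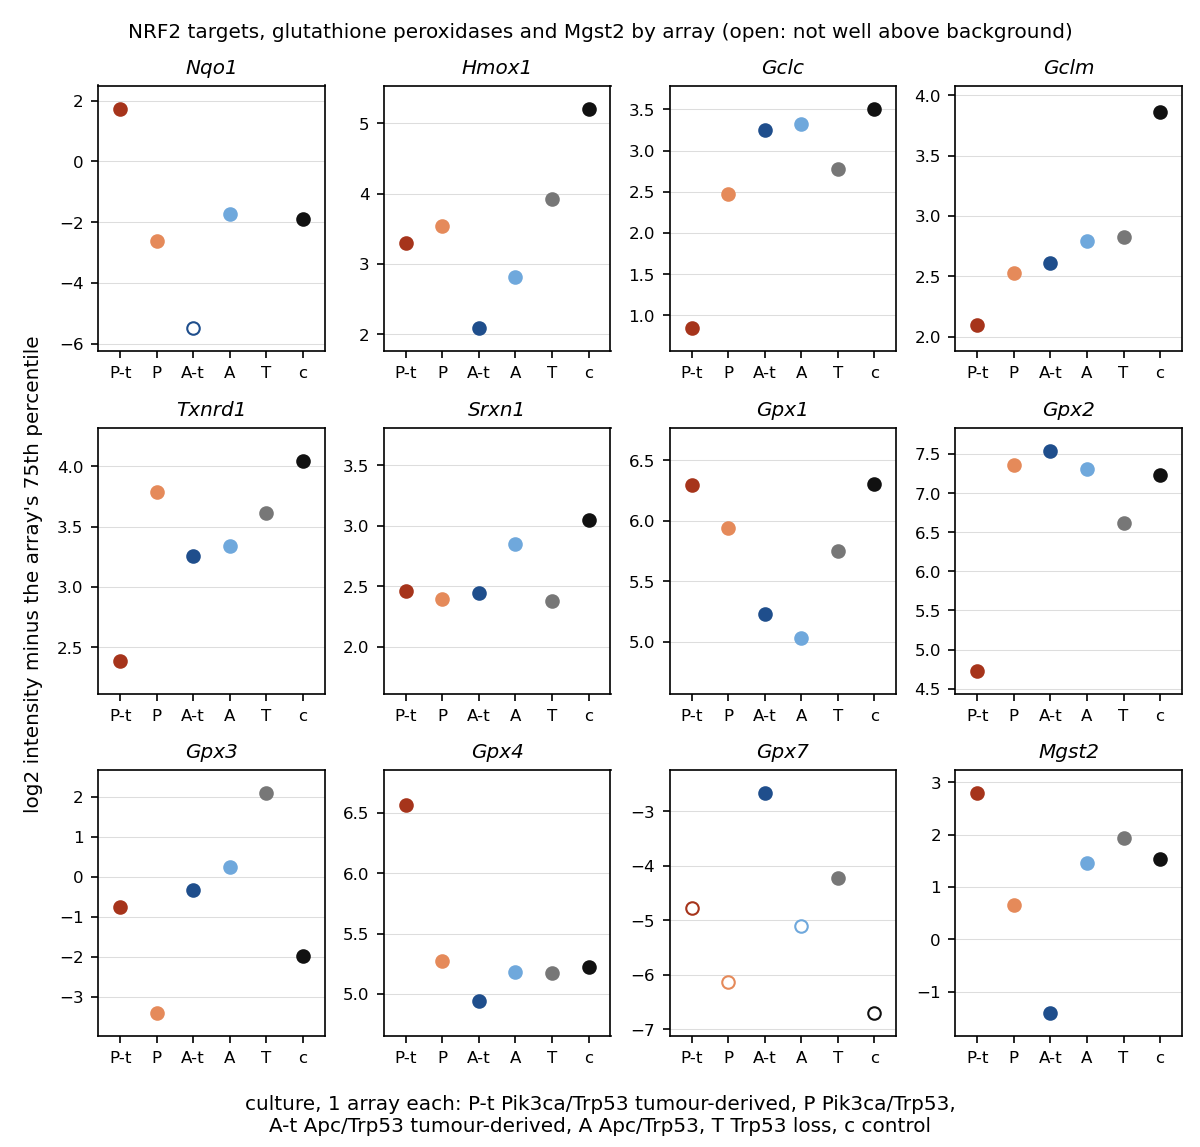
Each panel plots the log2 level of 1 gene on each of the 6 arrays, with 1 point per culture, its own vertical scale and open points where the array was not well above background. Nqo1 is highest and Gpx2 and Gclc lowest in tumour-derived Pik3ca/Trp53, and control is highest for the other 5 named targets, Hmox1, Gclc, Gclm, Txnrd1 and Srxn1. Nqo1 has no point for Trp53 loss because its spot was left out.

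The genes that make, recycle and export glutathione were lower in tumour-derived Pik3ca/Trp53 more often than higher, with 8 of 20 measured genes at least 2-fold lower than in Pik3ca/Trp53, 0 at least 2-fold higher and a median of -0.76, against 11.3% of all genes lower and 14.1% higher. Cth, which makes cysteine from cystathionine, was 5.58-fold lower there and 8.95-fold lower in tumour-derived Apc/Trp53 than in Apc/Trp53. The cystine importer gene Slc7a11 was 3.21-fold lower in tumour-derived Pik3ca/Trp53 and 5.24-fold lower in tumour-derived Apc/Trp53, each against its culture before inoculation. Chac1, which degrades glutathione, was 8.09-fold lower in tumour-derived Apc/Trp53, and Ggt7, of the gamma-glutamyltransferase family, was at least 7.33-fold higher there. In tumour-derived Apc/Trp53 minus Apc/Trp53 the list had 2 of 21 genes higher, 3 lower and a median of -0.32, against 11.3% of all genes higher and 8.04% lower. In Trp53 loss minus control 1 of 18 genes was higher and 0 lower (6.02% and 7.38% of all genes), with Cth 4.13-fold higher. In Pik3ca/Trp53 minus Trp53 loss 3 of 20 were higher and 1 lower (9.72% and 8.01% of all genes). In Apc/Trp53 minus Trp53 loss 2 of 20 were higher and 0 lower (5.36% and 5.26% of all genes).

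Most further known NRF2 targets outside the members were within 2-fold in Trp53 loss compared with control, with 4 of 27 measured genes at least 2-fold lower, 0 higher and a median of -0.53, against 7.38% of all genes lower and 6.02% higher. Aox1, an aldehyde oxidase, was 10.9-fold lower and Pir 3.23-fold lower. In tumour-derived Pik3ca/Trp53 minus Pik3ca/Trp53 the list split, with 4 of 29 genes higher and 6 lower (median -0.19), against 14.1% of all genes higher and 11.3% lower. Aox1 was 6.6-fold higher there, the carboxylesterase gene Ces2g at least 5.29-fold lower and Pir 4.17-fold lower. In Pik3ca/Trp53 minus Trp53 loss 3 of 28 were higher and 0 lower (9.72% and 8.01% of all genes), with Nqo2 3.37-fold higher. In Apc/Trp53 minus Trp53 loss 2 of 29 were higher and 2 lower (5.36% and 5.26% of all genes), and in tumour-derived Apc/Trp53 minus Apc/Trp53 0 of 29 were higher and 4 lower (11.3% and 8.04% of all genes).

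All 16 genes of the NRF2 pathway regulator list were measured, and 2 to 3 of them were 2-fold apart in each comparison, with medians between -0.22 and 0.16, while 10.6% to 25.4% of all genes were. Nfe2l2, the gene of NRF2 itself, was 2.04-fold lower in tumour-derived Apc/Trp53 than in Apc/Trp53 as the mean of 2 probes. The brighter probe read 2.74 in tumour-derived Apc/Trp53 and 3.57 in Apc/Trp53, and the dimmer one -1.001 in tumour-derived Apc/Trp53 and 0.22 in Apc/Trp53. In the other 4 comparisons the mean of its probes differed by less than 2-fold, at -0.61 in tumour-derived Pik3ca/Trp53 minus Pik3ca/Trp53 and -0.29 in Trp53 loss minus control, where its probes had opposite signs. Maff, a small MAF partner of NRF2, was 2.7-fold lower in Pik3ca/Trp53 than in Trp53 loss and 2.82-fold higher in tumour-derived Pik3ca/Trp53 than in Pik3ca/Trp53. In Trp53 loss Trim16 was 2.22-fold lower than it was in control. Nfe2, a relative of NRF2 known from blood cells, and the repressor gene Bach2 were near background, with Nfe2 at least 2.18-fold lower in tumour-derived Pik3ca/Trp53 than in Pik3ca/Trp53 and Bach2 at least 2.61-fold lower in Apc/Trp53 than in Trp53 loss.

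Of 20 measured thioredoxin, peroxiredoxin, glutaredoxin and superoxide dismutase genes, 0 to 3 were 2-fold apart in each comparison, while 10.6% to 25.4% of all genes were. Prdx6, the peroxiredoxin that uses glutathione, was 3.72-fold lower in tumour-derived Pik3ca/Trp53 than in Pik3ca/Trp53. Glrx, the cytosolic glutaredoxin, was 4.18-fold higher there and 2.68-fold lower in tumour-derived Apc/Trp53 than in Apc/Trp53. Txnip was 2.03-fold lower in Pik3ca/Trp53 and 2.55-fold lower in Apc/Trp53 than in Trp53 loss. Sesn1, a p53 target, was 2.61-fold lower in tumour-derived Pik3ca/Trp53 than in Pik3ca/Trp53, and in Trp53 loss minus control it was at 0.27.

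In the list of selenoprotein synthesis and supply, Selenop, the secreted selenium carrier, was 2.49-fold higher in Trp53 loss than in control, 4.43-fold lower in Pik3ca/Trp53 than in Trp53 loss and 7.06-fold higher in tumour-derived Pik3ca/Trp53 than in Pik3ca/Trp53. In Apc/Trp53 minus Trp53 loss Selenop was at -0.63, and in tumour-derived Apc/Trp53 minus Apc/Trp53 at -0.91. The selenium-binding protein genes Selenbp1 and Selenbp2, which share much of their sequence, were 2.81-fold and 2.4-fold lower in tumour-derived Pik3ca/Trp53 than in Pik3ca/Trp53. The receptor gene Lrp8 was at least 2.28-fold lower there. The list had 1 gene higher and 4 of 13 lower in that comparison (14.1% and 11.3% of all genes), and 3 of 12 higher and 0 lower in Trp53 loss minus control (6.02% and 7.38% of all genes).

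Both fits that pool arrays called no gene. The first compared both tumour-derived cultures with both before inoculation, with genotype as a block, by limma with Benjamini-Hochberg adjustment over 14219 genes. At an adjusted p of 0.05 it called 0% of genes and 0 of 35 members, while 559 genes (3.93%) and 1 member had an unadjusted p under 0.05. That member was Gpx8, lower in the tumour-derived cultures by limma (log2 -1.20, SE 0.29, adjusted p 0.991). The other compared Trp53 loss, Pik3ca/Trp53 and Apc/Trp53 with the single control, in 15036 genes, and again limma called 0% of genes and 0 of 36 members. At an unadjusted p under 0.05 there were 1265 genes (8.41%) and 4 members. By limma these were Gsto2 (log2 -2.58, SE 0.27, adjusted p 0.189), Gclm (log2 -1.15, SE 0.25, adjusted p 0.396), Hmox1 (log2 -1.78, SE 0.52, adjusted p 0.515) and Gstt1 (log2 2.61, SE 0.82, adjusted p 0.551). All 3 cultures were set against the same control array, and they differ in the added allele, so their spread includes that. The value of Gsto2 averages in a probe that was above background in control but on none of the 3 other arrays, and its probe above background everywhere read -2.62 in Pik3ca/Trp53, -2.01 in Apc/Trp53, -1.60 in Trp53 loss and -0.21 in control. Nqo1 was fitted without the Trp53 loss array. The fits had 1 and 2 residual degrees of freedom, and a member that missed the threshold is not shown to be alike between the groups.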

How the data were processed

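The arrays were one-colour (Cy3) Agilent arrays of total RNA, per the labels' protocols. The spot intensity that the authors deposited is background-subtracted and not scaled between arrays, per the file headers. The submitters' processing notes name Agilent Feature Extraction 11.0.1.1. A separate deposited table gives log2 values for 2047 probes, 8 of them members'. It differs from log2 scanner intensity by 1 constant per array, its column medians are -0.05 in tumour-derived Pik3ca/Trp53 and 0.15 in Pik3ca/Trp53, -0.20 in tumour-derived Apc/Trp53 and -0.32 in Apc/Trp53, -0.02 in Trp53 loss and 0.03 in control, and its centring is unstated.

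Control and outlier-flagged spots were left out, spots of a probe averaged, and log2 intensity reduced by the array's 75th percentile. RefSeq named 34566 of 56605 probes. A gene's difference is the mean over probes that at least 1 of both compared arrays showed well above background, while a level per array is the mean over probes above background on all 6. Where a gene had no such probe, as for Nqo1, Gpx5, Gpx6 and Gpx7, its level is that of its brightest probe. Where all or part of a gene was dim on 1 array, "at least" gives the fold with the dim signal raised to the lowest signal well above background there. The limma fits (R 4.3.3, limma 3.58.1) took genes that at least 2 of the 4 paired arrays, or at least 1 of the 4 arrays in the fit against control, showed above background. Their code was also run on simulated arrays, which checks the code and not how well the fits suit these cultures. Other steps ran in Python 3.11.15 with pandas 2.3.3, numpy 2.4.6 and matplotlib 3.10.9. Each tumour-derived culture is paired with its source by the labels, so the pair fit has genotype as a block.

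Alternatives were other scalings, background corrections, filters and probe summaries. The normexp correction used median spot signals, as mean signals were not used here. Values on every array are given for the 6 markers, the other NRF2 targets, Gpx1, Gpx4 and members at least 4-fold apart in a comparison, 23 in all. The other 15 members are given by range and count, and those of them named with values were chosen after the values were seen. Pathway lists are shown by up to 4 genes with the largest fold. Nfe2l2, Foxj1 and the marker genes were named after their values were seen. The members and lists were chosen with earlier results of these data known. Nothing shows whether cultures came from separate animals. In both fits cultures of different genotypes stand in for replicates, so SEs and p-values measure only a spread that includes differences between genotypes. In the pair fit that spread is how far the tumour-derived differences of both genotypes lie apart.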

Additional observations from a re-analysis of the deposited data

Results flagged for a closer look

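Of 34 members measured in both tumour pairs, 3 differed in opposite directions by at least 2-fold, and this difference between the genotypes was not tested, since each pair has 1 array a side. How many of all genes did so was not counted, so whether 3 of 34 is unusual is not known. In the Pik3ca/Trp53 pair 14.1% of all genes were at least 2-fold higher and 11.3% lower. The shares in the Apc/Trp53 pair were 11.3% and 8.04%. Nqo1 was at 4.35 in tumour-derived Pik3ca/Trp53 minus Pik3ca/Trp53 and at -2.97 in tumour-derived Apc/Trp53 minus Apc/Trp53, where the dim tumour-derived signal was raised to the background limit. Mgst2 was at 2.14 in the Pik3ca/Trp53 pair and at -2.87 in the Apc/Trp53 pair. Gstm6 was at -2.70 in the Pik3ca/Trp53 pair and at 1.103 in the Apc/Trp53 pair as the mean of 2 probes, and at 0.34 in the Apc/Trp53 pair on the brighter probe alone.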

How the results depend on the processing

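Counts of members, either at least 2-fold apart or called by limma, stayed within 1.5 times the reported count in 99 of 110 alternatives. The limma counts were 0 in every run, so all 11 counts that moved were of members at least 2-fold apart. With scaling to the array median, 4 members were lower in Trp53 loss than in control (7 reported) and 3 higher in tumour-derived Apc/Trp53 than in Apc/Trp53 (5 reported). With normexp background correction the counts were 4 higher (8 reported) and 4 lower (7 reported) in Trp53 loss, 2 lower in Pik3ca/Trp53 than in Trp53 loss (5 reported) and 3 higher in tumour-derived Apc/Trp53 (5 reported). With only probes above background on all 6 arrays they were 5 higher in Trp53 loss, 3 lower in Pik3ca/Trp53 and 2 higher in tumour-derived Apc/Trp53. With dim signals raised, 3 were lower in Pik3ca/Trp53, and with the brightest probe of each gene 3 were higher in tumour-derived Apc/Trp53. Gpx7 in Pik3ca/Trp53 minus Trp53 loss turned to 0.0599 with dim signals raised, because the Pik3ca/Trp53 signal is below the limit it was raised to. Of 47 named differences of at least 2-fold, 37 stayed so in every alternative run, and the others, which concern Gclm, Gstm4, Gstm6, Gpx7 and Txnrd1, fell under 2-fold in at least 1. Gsta2 read -3.58 in Trp53 loss, near that array's background limit of -4.57, and the size of its differences depended on the processing. Its log2 difference ranged from -2.57 to -1.39 in Trp53 loss minus control. Against Trp53 loss it ranged from 1.87 to 3.25 in Pik3ca/Trp53 and from 2.04 to 3.30 in Apc/Trp53. Scaling to the array median moved the median of all genes to 0.22 in Trp53 loss minus control, where 56.4% rather than 44.9% of genes 2-fold apart were higher, and to -0.36 in tumour-derived Apc/Trp53 minus Apc/Trp53, where 37.8% rather than 58.4% were. With normexp, 291 genes were higher and 361 lower in Trp53 loss than in control (864 and 1060 reported). The limma fits called 0 members without the replicate block, without each Trp53-loss culture in turn and under the other alternatives, and quantile normalization called 76 genes, none of them a member, in the fit against control. Signals near background and 1 array per culture limit all counts.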
